A study of Rattus norvegicus with 6 samples.

Results

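The kidney prostaglandin system was examined through 10 genes: the cyclooxygenases Ptgs1 and Ptgs2, the terminal synthases Ptges, Ptges2 and Ptgds, the prostaglandin E2 receptors Ptger1, Ptger3 and Ptger4, the uptake carrier Slco2a1 and the breakdown enzyme Hpgd. Members were all probe sets whose platform symbol is one of these names. The rule found 16 probe sets among 31042 that are not array controls, and they covered 10 of the 14217 genes named on the array, that is all 10 of the names. Each of 6 genes had 2 probe sets. The congenic rats carry a piece of chromosome 9 of the R strain in a Dahl salt-sensitive (S) background, and S rats were the controls. The title of the study places a blood pressure locus in that piece. Both groups were males of 53 days, weaned at 30 days and fed 2% salt, with 1 rat of each strain in a cage. Kidney RNA from 6 rats per strain was combined 2 by 2, which gave 3 pools and 3 Affymetrix Rat 230 2.0 arrays per strain. Pooling hides the variation between single rats. By RefSeq's gene positions for GRCr8, 0 of the 10 genes lie on chromosome 9, so none belongs to the introgressed piece.

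Prostaglandins are lipid signals made from arachidonic acid, which phospholipases free from membranes. A cyclooxygenase turns it into an unstable intermediate, a terminal synthase shapes that into a given prostaglandin, and the product acts on receptors of nearby cells before it is taken up by a carrier and oxidised. In the kidney, prostaglandin E2 is known for opposing sodium and water reabsorption in the thick ascending limb and collecting duct and for sustaining medullary blood flow and renin release. The comparison asks whether the message for any of these steps differed between congenic and S kidneys.

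None of the 12 member probe sets that could be tested differed between the strains at an adjusted p under 0.05. limma called 0 of all 18625 tested probe sets, or 0%, so the members shared this with all tested transcripts, whereas 1232 probe sets had an unadjusted p under 0.05. The members with the smallest p were Ptgs1, Slco2a1 and Ptgs2, whose mean signals in congenic kidneys were 0.846, 0.876 and 0.833 of the S means, and Ptgs1 alone had groups that did not overlap. At an unadjusted p under 0.05 there was 1 lower member probe set of 12 and 0 higher, where the shares over all tested probe sets were 3.52% lower and 3.1% higher. Groups without overlap were found for 1 lower and 0 higher member probe sets of 12, against 6.79% lower and 5.71% higher over all tested probe sets. A count of 1 in 12 is close to these shares and is no result about the members. The count at an unadjusted p under 0.05 was 2 without S replicate 1 (Ptgs1 and Ptgs2), 2 without S replicate 3 (Ptger3 and Hpgd, both higher) and 2 without congenic replicate 2 (Ptgs1 and Slco2a1), so which member was counted varied with the arrays. With each gene read from its brightest probe set, the log2 fold change (congenic over S) was negative for 7 of the 8 tested member genes and the median -0.14, beside 5617 of 10648 and -0.0070 over all tested genes. Over all 12 member probe sets 8 were negative and 4 positive with a median of -0.086, beside 9551 of 18625 negative and a median of -0.0036 over all tested probe sets. With the mean over the tested probe sets of each gene, the members' median was -0.089. The same arrays enter every member, so these signs are not independent of each other.

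**Figure D1:**
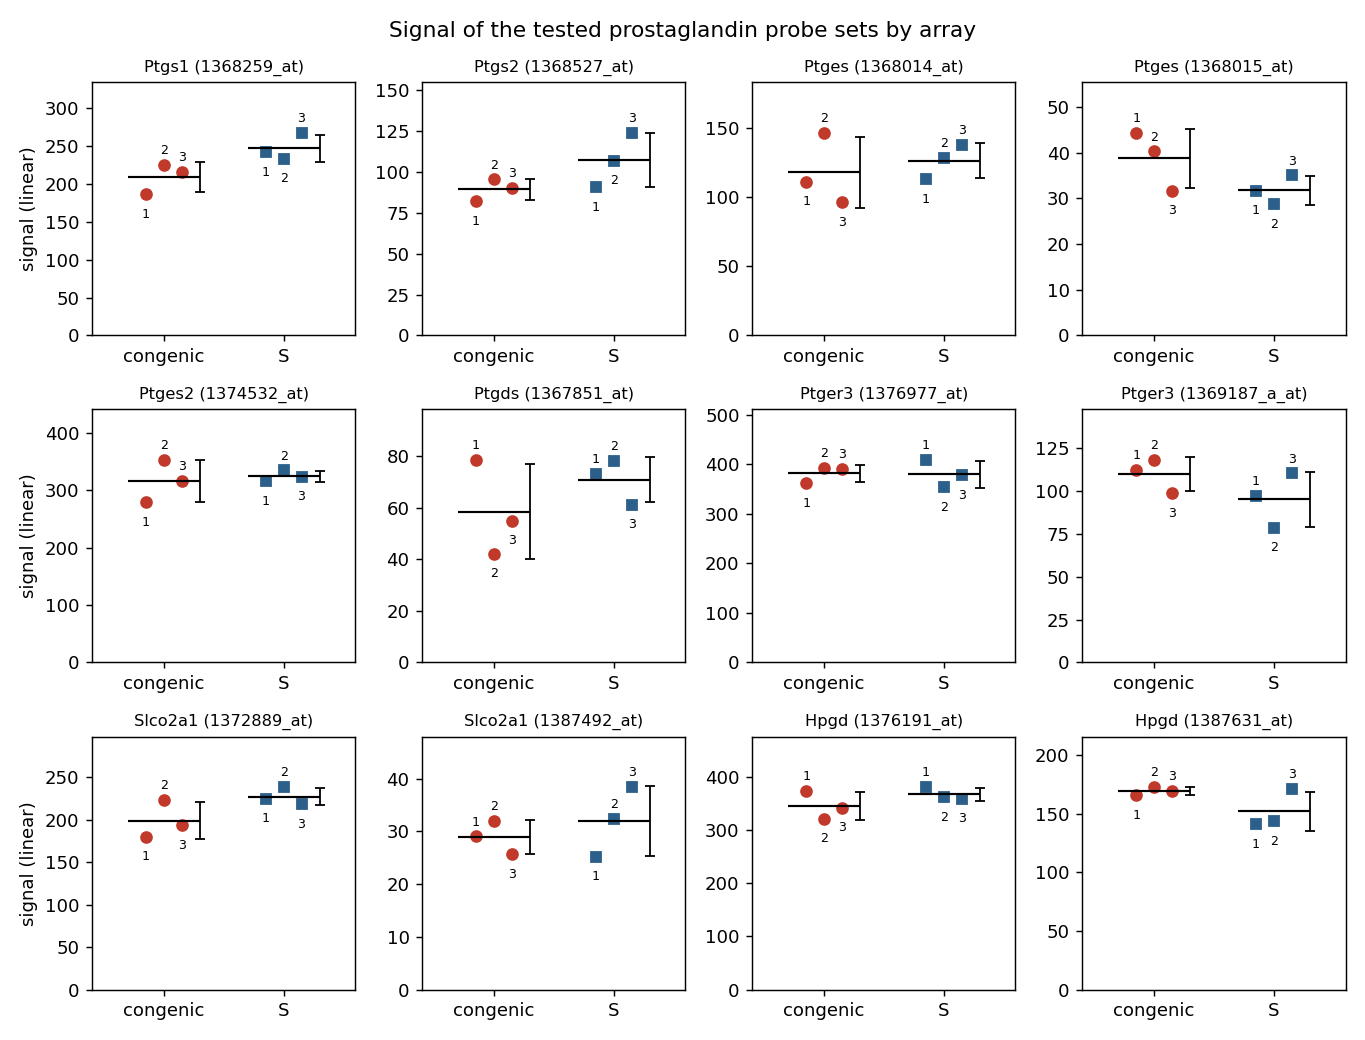
Signal on a linear scale (y axis) of the 12 tested member probe sets on the 3 congenic (red circles) and 3 S arrays (blue squares), with the replicate number beside each point, the mean as a line and the SD as a bar. In the Ptgs1 panel the highest congenic value, 225, lies under the lowest S value, 233, and in the other 11 panels the groups overlap.

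Any 2 arrays correlated at 0.969 or more over probe sets (Spearman), and kidney markers were strong on all of them: the summed signal of 6 measured kidney genes, such as Umod, Slc12a1, Lrp2 and Aqp2, ran from 24689 to 25201 in congenic and from 23883 to 25535 in S pools. Congenic replicates 1 and 3 stood apart through transcripts of neighbouring organs. The 5 liver markers summed to 9132 on congenic replicate 1 and to between 71.6 and 137 on the other 5 arrays, and the 5 adrenal markers to 5506 on congenic replicate 3 and to between 128 and 142 elsewhere. In whole-kidney RNA, fewer cells of a type and less RNA per cell cannot be told apart.

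The start regions of Ptgs1, Ptgs2 and Slco2a1 are shown because the brightest probe sets of these 3 genes shared their lowest array, congenic replicate 1. That array also carried the liver transcripts, so the choice rests on it alone and not on a difference between the strains. Ptges2 was also lowest on congenic replicate 1, but the source of start regions held none for it, so it is named only. The sequences are from RefSeq, build GRCr8, which is the BN strain and not S or R: Ptgs1 at chr3:39981169-39981468 (+ strand), Ptgs2 at chr13:64713813-64714112 (+ strand) and Slco2a1 at chr8:112467489-112467788 (+ strand). Each holds 250 bases before the annotated start and 50 from it on, 5′ to 3′, with capitals marking matches on either strand to TATAAA (the TATA box), CACGTG (an E-box), TGACGTCA (the full cyclic AMP response element), GGGCGG (the GC box) or CCAAT. No 2 matches overlap in these windows.
Ptgs1: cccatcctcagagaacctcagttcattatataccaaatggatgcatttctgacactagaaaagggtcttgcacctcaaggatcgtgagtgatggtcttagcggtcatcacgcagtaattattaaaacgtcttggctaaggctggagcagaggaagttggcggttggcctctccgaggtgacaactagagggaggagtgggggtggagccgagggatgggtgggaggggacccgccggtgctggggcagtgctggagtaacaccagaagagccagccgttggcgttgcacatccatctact
Ptgs2: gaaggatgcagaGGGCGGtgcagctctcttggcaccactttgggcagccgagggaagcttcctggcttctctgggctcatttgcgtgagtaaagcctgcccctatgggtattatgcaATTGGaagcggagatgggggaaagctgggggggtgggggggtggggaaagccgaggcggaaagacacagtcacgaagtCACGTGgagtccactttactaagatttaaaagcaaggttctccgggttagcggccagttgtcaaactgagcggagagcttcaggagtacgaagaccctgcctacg
Slco2a1: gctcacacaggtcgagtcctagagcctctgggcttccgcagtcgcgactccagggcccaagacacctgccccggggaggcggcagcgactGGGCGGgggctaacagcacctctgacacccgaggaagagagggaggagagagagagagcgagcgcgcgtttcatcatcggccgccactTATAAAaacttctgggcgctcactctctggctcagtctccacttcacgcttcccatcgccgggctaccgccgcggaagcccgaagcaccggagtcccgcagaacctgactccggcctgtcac

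The Ptgs1 window held none of these words. The Ptgs2 window held a GC box, CCAAT read on the opposite strand and CACGTG starting 55 bases before the start, and the Slco2a1 window a GC box and a TATA box starting 72 bases before it. Of 33469 rat windows of the same length, 6.42% held CACGTG, 14.2% TATAAA, 33.1% GGGCGG, 37.5% CCAAT and 1.83% TGACGTCA. Of the 9 members with a window in the table, 2 held CACGTG (Ptgs2 and Hpgd), 1 TATAAA (Slco2a1), 7 GGGCGG, 2 CCAAT and 0 TGACGTCA. These are matches of letters, and no word was shared by all 3 of the genes shown.

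Of the cyclooxygenases, Ptgs1 is the constitutive form, found in collecting duct, medullary interstitium and vessels, and also in platelets. Its brighter probe set, 1368259_at, had signals of 187, 225 and 216 in congenic pools and 242, 233 and 268 in S pools. Every congenic array lay below every S array, although congenic replicate 2 and S replicate 2 were close. The means were 209 ± 20.2 in congenic and 248 ± 17.8 in S pools (SD, n = 3 each). On the log2 scale congenic over S was -0.23 (SE 0.091), a fitted fold of 0.854 with a 95% interval of 0.742 to 0.982. The unadjusted p was under 0.05 and the limma adjusted p was 0.746.

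The Ptgs1 difference leaned on 2 arrays. It was -0.15 with congenic replicate 1 left out, which carried the liver transcripts, and -0.17 with S replicate 3 left out, and in both cases the unadjusted p was no longer under 0.05 (limma adjusted p = 0.808 and adjusted p = 0.619). With congenic replicate 2 alone against the S arrays, a comparison added after the data were seen, it was -0.13. The second Ptgs1 probe set, 1381806_at, was below the cut for dim signals and did not enter the 12 tested. It read 21.0, 25.1 and 24.9 in congenic pools against 28.7, 14.6 and 14.4 in S pools, and the groups overlapped. With no filter on dim signals its log2 fold change was 0.19 (SE 0.18, limma adjusted p = 0.894). Collecting duct markers (7 of 7 measured) summed to between 5966 and 6909 in congenic and between 5351 and 6008 in S pools. Of these 7, 4 were higher and 3 lower, with a median log2 fold change of 0.0043. Much of that sum was signal of Aqp2, which read 3002, 3418 and 3175 in congenic pools and 2817, 2466 and 2883 in S pools. Platelet markers (3 of 3 measured, of which Ppbp and Gp9 were below the cut) summed to between 161 and 199.9 in congenic and between 176 and 199 in S pools. Medullary interstitium and inner medulla markers (6 of 7 measured, 6 higher) summed to between 5328 and 5602 in congenic and between 4507 and 5519 in S pools. Smooth muscle and renin cell markers (4 of 5 measured, 1 higher and 3 lower, median log2 fold change -0.13) summed to between 579 and 648 in congenic and between 571 and 765 in S pools. They were highest on S replicate 3, as Ptgs1 was, and lowest on S replicate 1, where Ptgs1 was not. Urothelium markers (5 of 5 measured, with Upk2 below the cut, 4 of 4 tested lower) summed to between 401 and 470.2 in congenic and between 494 and 542 in S pools, without overlap. The part of any of these in the Ptgs1 values was not tested.

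Ptgs2 is the inducible cyclooxygenase, which in the kidney sits in the macula densa, the adjoining thick ascending limb and medullary interstitial cells. Its only probe set, 1368527_at, had signals of 82.2, 95.4 and 90.3 in congenic pools and 90.7, 107 and 124 in S pools. The S pools were more spread than the congenic ones, and S replicate 1 fell inside the congenic range. The means were 89.3 ± 6.69 in congenic and 107 ± 16.6 in S pools (SD, n = 3 each). The difference on the log2 scale was -0.22 (SE 0.12, limma adjusted p = 0.782). The fitted fold was 0.859 with an interval of 0.717 to 1.03. This log2 value was -0.17 without congenic replicate 1, -0.12 without S replicate 3 and -0.32 without S replicate 1, where the unadjusted p was under 0.05 (limma adjusted p = 0.912). With congenic replicate 2 alone it was -0.14.

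Ptgs2 is itself an inducible early-response gene, and S replicate 1, its lowest S array, was also the lowest of all 6 arrays for the summed immediate early genes Fos, Jun, Egr1, Atf3 and Ier2. That sum lay between 2709 and 3513 on the congenic arrays, and was 1308 on S replicate 1 and 2415 and 3101 on the other S arrays. All of the 5 gave positive log2 fold changes, 0.40 at the median, whereas that of Ptgs2 was negative. For actin, the ratio of 3′ to 5′ probe signal, which is larger in degraded RNA, was 6.15 to 7.17 on the congenic arrays, 9.42 on S replicate 1 and 6.54 to 8.13 on the other S arrays. Thick ascending limb and macula densa markers (5 of 5 measured, with Nos1 below the cut) summed to between 11400 and 12151 in congenic and between 10819 and 11302 in S pools, without overlap. Most of that sum was signal of Umod and Slc12a1, whose groups overlapped for each gene alone. For the 6 medullary markers given above the median was 0.097 on the log2 scale, opposite in sign to Ptgs2. The part of these in the Ptgs2 values was not tested.

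Among the terminal synthases, Ptges encodes the inducible microsomal enzyme that often works with Ptgs2. Its brighter probe set, 1368014_at, read 111, 147 and 96.6 in congenic pools and 113, 128 and 138 in S pools. Congenic arrays held both the highest and the lowest value. On the log2 scale the difference was -0.10 (SE 0.14, limma adjusted p = 0.905), with a fitted fold of 0.933 and an interval of 0.757 to 1.15. It was 0.018 without congenic replicate 3, the array with adrenal transcripts. The dimmer Ptges probe set, 1368015_at, ran from 31.7 to 44.4 in congenic and from 28.8 to 35.1 in S pools and had the opposite sign, 0.19 (SE 0.14, limma adjusted p = 0.812). It was 0.12 without congenic replicate 1, its highest array, and 0.29 without congenic replicate 3. With all 6 arrays the probe sets of Ptges gave no common direction.

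Ptges2, a second and more widely expressed prostaglandin E synthase, was the steadiest synthase across the S pools. Probe set 1374532_at read 279, 352 and 316 in congenic pools and 315, 334 and 323 in S pools. The congenic pools, at 315.5 ± 36.9, enclosed the S pools, at 324 ± 9.63 (SD, n = 3 each). Congenic over S was -0.044 on the log2 scale (SE 0.088, limma adjusted p = 0.939), and the interval of the fitted fold was 0.848 to 1.11. Without congenic replicate 1, its lowest array, the value was 0.039.

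Ptgds encodes the lipocalin-type synthase of prostaglandin D2, a secreted protein that is filtered and found in urine. Probe set 1367851_at read 78.4, 42.0 and 55.0 in congenic pools and 73.1, 77.9 and 61.1 in S pools. Congenic replicate 1 was just above the highest S pool, and the other congenic pools lay below all S pools. The log2 fold change was -0.24 (SE 0.17, limma adjusted p = 0.809), the largest in size among the tested members. Its interval was also the widest, with a fitted fold of 0.844 and bounds of 0.651 and 1.09. The value was -0.43 without congenic replicate 1, where the unadjusted p was under 0.05 (limma adjusted p = 0.717). It was -0.079 without congenic replicate 2 (limma adjusted p = 0.965). With congenic replicate 2 alone, the lowest array for Ptgds, it was -0.57, which rests on 1 congenic pool. Fat markers (5 of 5 measured, with Lep below the cut) were also unequal across the congenic arrays, but in the reverse order of Ptgds. They summed to 989 on congenic replicate 1 and to 1517 and 1449 on replicates 2 and 3, against 1297 to 1659 in S pools. Their part in the Ptgds values was not tested.

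**Figure D2:**
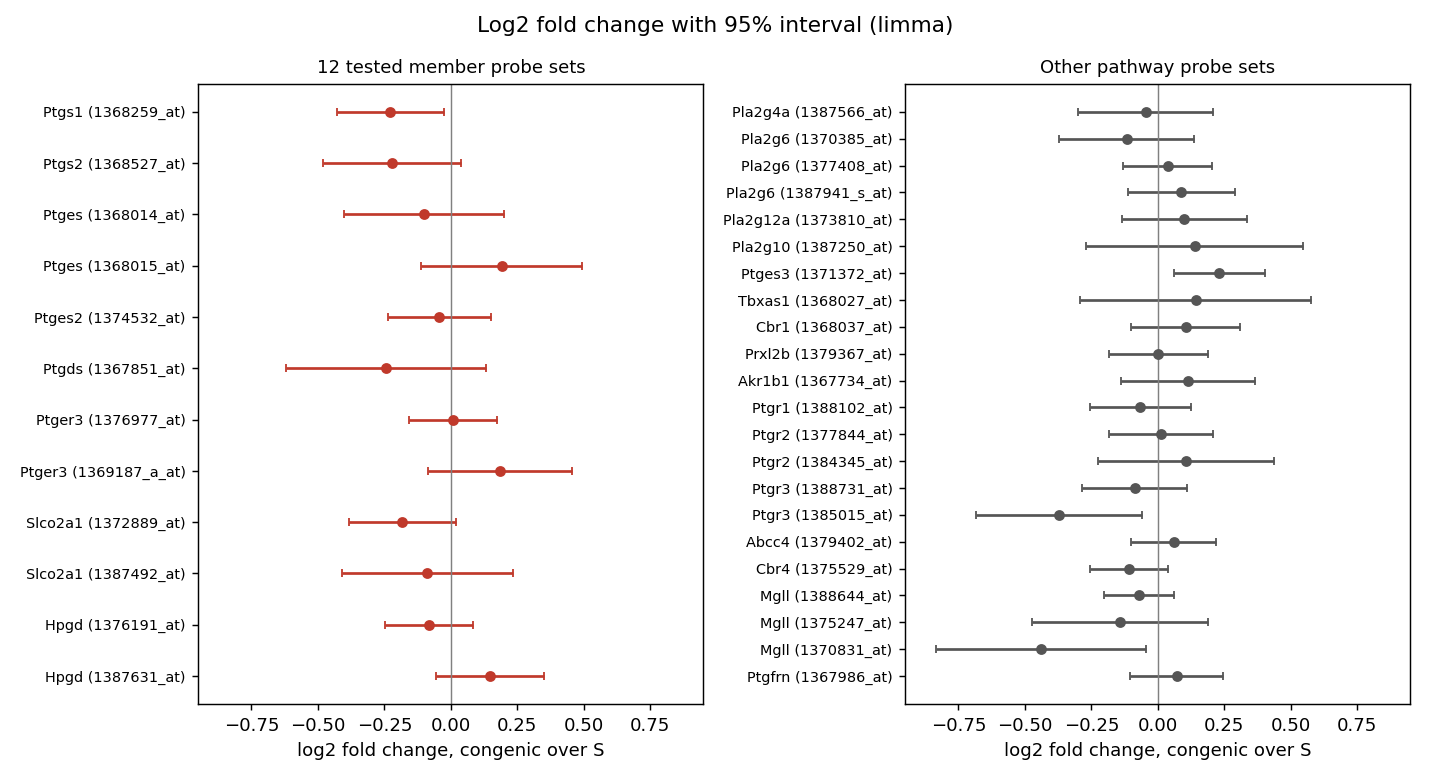
Log2 fold changes (x axis, congenic over S) with 95% intervals from limma for the 12 tested member probe sets (left, red) and for 22 tested probe sets of other genes of the pathway (right, grey). Among the members the interval of Ptgs1 alone lies wholly below 0, and on the right those of Ptges3, one Ptgr3 and one Mgll probe set do not reach 0.

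Of the receptors, only Ptger3 was bright enough to test. It encodes EP3, which lowers cyclic AMP and in the kidney is best known from the thick ascending limb and collecting duct, where it opposes vasopressin. Probe set 1376977_at read 361, 391.7 and 390.5 in congenic pools and 408, 353 and 377 in S pools. The S pools enclosed the congenic ones. The means were 381 ± 17.1 in congenic and 379 ± 27.7 in S pools (SD, n = 3 each), or 0.0080 on the log2 scale (SE 0.075, limma adjusted p = 0.989). The interval of the fitted fold was 0.896 to 1.13, so that fold changes beyond these bounds lie outside it. Its sign changed with single arrays left out, between -0.041 and 0.060.

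The other Ptger3 probe set, 1369187_a_at, ran from 98.6 to 118 in congenic and from 78.4 to 110.2 in S pools. Its log2 fold change was 0.18 (SE 0.12, limma adjusted p = 0.804), and 0.071 without S replicate 2, its lowest array. Without S replicate 3 it was 0.28, where the unadjusted p was under 0.05 (limma adjusted p = 0.536). With all 6 arrays both probe sets had a positive sign, and neither had an unadjusted p under 0.05.

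Ptger1 and Ptger4 gave only dim signals. Ptger1 encodes EP1, which acts through calcium, and its probe sets ran from 7.11 to 15.4 in congenic and from 6.06 to 14.0 in S pools. In full, 1369254_a_at read 12.2, 9.80 and 7.11 in congenic pools and 10.8, 14.0 and 12.7 in S pools. Ptger4 encodes EP4, which stimulates cyclic AMP formation and is tied to renin release, and its probe set 1368941_at read 9.18, 9.30 and 14.2 in congenic pools and 9.41, 3.03 and 21.9 in S pools. The groups overlapped for all 3 probe sets. All 3 lay below the cut of about 25.0 at the 40th percentile, so they are not among the 12 tested. With no filter on dim signals, the log2 fold changes were -0.15 (SE 0.13, limma adjusted p = 0.881) for Ptger1 by 1369254_a_at and 0.13 (SE 0.16, limma adjusted p = 0.924) by its other probe set. Ptger4 was at 0.024, with an interval of -0.52 to 0.56 that is wider than that of any member above the cut (SE 0.24, limma adjusted p = 0.993). Without detection calls, whether these signals exceed the array's background is unknown. No direction can be read for either receptor.

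Slco2a1 encodes the prostaglandin transporter, which carries prostaglandins into cells for breakdown and is found in endothelium and collecting duct. Its brighter probe set, 1372889_at, read 180.2, 223 and 194 in congenic pools and 225, 238 and 218 in S pools. Congenic replicate 2 lay inside the S range and the other congenic pools lay below it. The means were 199 ± 22.0 in congenic and 227 ± 10.3 in S pools (SD, n = 3 each), or -0.18 on the log2 scale (SE 0.091, limma adjusted p = 0.78). The fitted fold was 0.882 with an interval of 0.767 to 1.01. The value was -0.12 without congenic replicate 1, -0.26 without congenic replicate 2, where the unadjusted p was under 0.05 (limma adjusted p = 0.886), and -0.024 with congenic replicate 2 alone. The 2 lower congenic arrays were the ones with transcripts of other organs, whose part in these values was not tested.

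The dimmer Slco2a1 probe set, 1387492_at, ran from 25.6 to 32.0 in congenic and from 25.2 to 38.3 in S pools, or -0.088 on the log2 scale (SE 0.15, limma adjusted p = 0.924). Endothelial markers (5 of 6 measured, 3 higher and 2 lower) summed to between 1286 and 1476 in congenic and between 1321 and 1471 in S pools. They were lowest on congenic replicate 1, as Slco2a1 was, and highest on congenic replicate 3, where Slco2a1 was not. Their part in the Slco2a1 values was not tested.

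Hpgd encodes the dehydrogenase that begins the inactivation of prostaglandins after uptake. Its brighter probe set, 1376191_at, read 373, 321 and 342 in congenic pools and 379.8, 361 and 358 in S pools. One congenic array, replicate 1, lay within the S range and the other congenic arrays lay below it. The means were 345 ± 26.4 in congenic and 366 ± 11.7 in S pools (SD, n = 3 each), or -0.084 on the log2 scale (SE 0.075, limma adjusted p = 0.848). The fitted fold was 0.944 with an interval of 0.841 to 1.06. The value was -0.14 without congenic replicate 1 and -0.035 without congenic replicate 2.

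The second Hpgd probe set, 1387631_at, read 166, 172 and 169 in congenic pools and 141, 144 and 171 in S pools. Here the congenic pools were tight, and S replicate 3 alone reached them. Its log2 fold change was 0.15 (SE 0.092, limma adjusted p = 0.79), opposite in sign to the first probe set, and 0.23 without S replicate 3, where the unadjusted p was under 0.05 (limma adjusted p = 0.495). Whether the probe sets differ from each other was not tested. Proximal tubule markers (5 of 5 measured, 5 lower) summed to between 13214 and 13710 in congenic and between 13444 and 15120 in S pools, and their part in the Hpgd values was not tested.

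Among the 4 genes with 2 tested probe sets, Ptges and Hpgd had probe sets of opposite sign and Ptger3 and Slco2a1 of the same sign. Across arrays, the members did not move as one. Congenic replicate 1 was the lowest array for 4 of the 12 tested probe sets (the brightest ones of Ptgs1, Ptgs2, Ptges2 and Slco2a1) and the highest for 2 (Ptgds and the dimmer Ptges). Congenic replicate 2 was the highest for 4 and the lowest for 2, and S replicate 3 the highest for 3 and the lowest for 0. The median deviation of the 12 probe sets from their own means was -0.053, 0.061 and -0.080 on congenic replicates 1, 2 and 3 and -0.038, 0.049 and 0.062 on S replicates 1, 2 and 3 (log2 scale). Neither strain thus held all the low or all the high arrays.

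**Figure D3:**
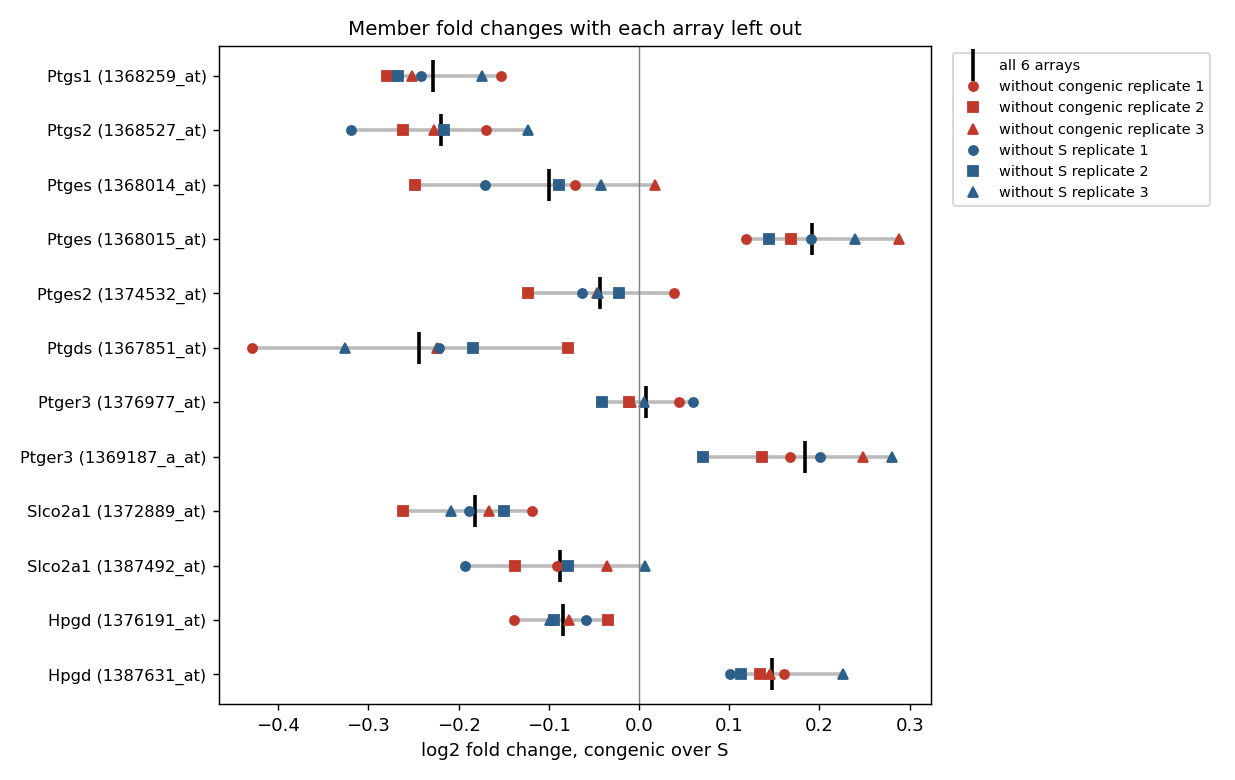
Log2 fold change (x axis, congenic over S) of the 12 tested member probe sets with all 6 arrays (black bar) and with each congenic (red) or S array (blue) left out, where circle, square and triangle stand for replicates 1, 2 and 3. Ptgs1 stays between -0.28 and -0.15, Ptgs2 between -0.32 and -0.12 and Slco2a1 (1372889_at) between -0.26 and -0.12, while Ptges (1368014_at), Ptges2, Ptger3 (1376977_at) and Slco2a1 (1387492_at) cross 0.

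Set among all tested probe sets, the log2 fold changes of the members ran from -0.24 to 0.19. No test against probe sets of like brightness was run. Ptgs1, with the smallest unadjusted p of the members, ranked at 753 of 18625 by p, and 1797 of 18625 probe sets had a log2 fold change at least as large in size. The median size of a log2 fold change was 0.16 over the 12 member probe sets and 0.080 over all tested probe sets.

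**Figure D4:**
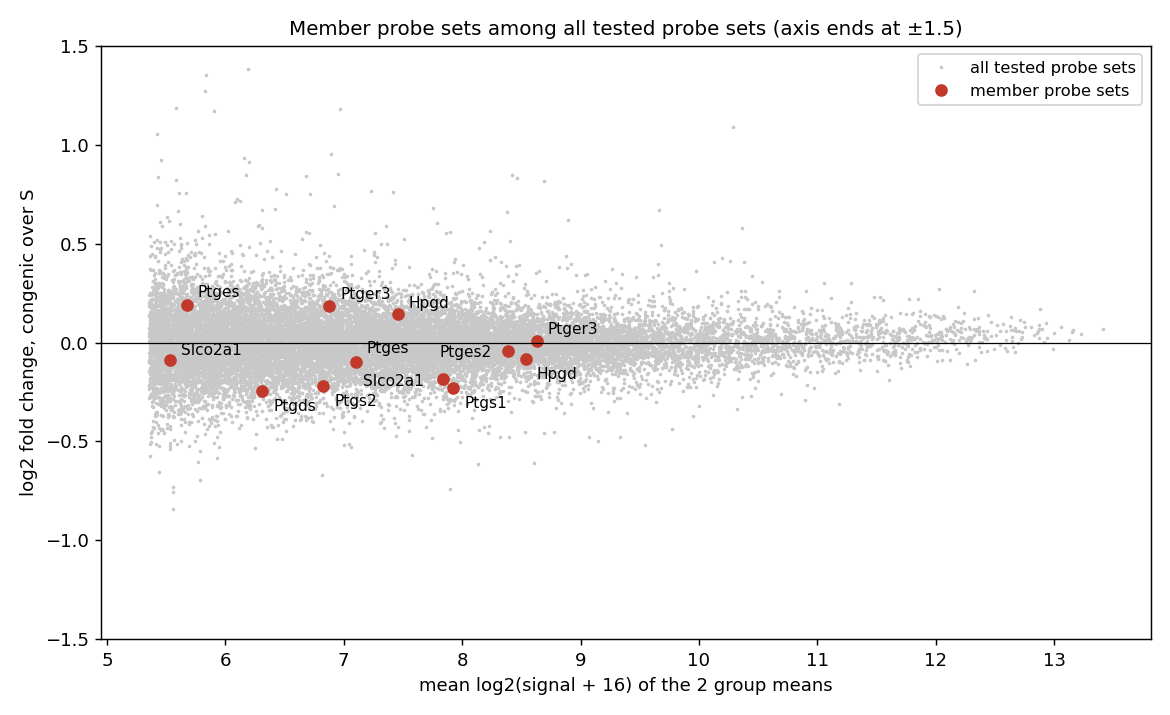
Log2 fold change (y axis, congenic over S) against mean log2(signal + 16) (x axis) for all tested probe sets (grey) and the 12 member probe sets (red, by gene). The members lie between -0.24 and 0.19, inside the grey cloud, and 9 grey probe sets beyond 1.5 in size are not drawn.

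Of 29 other genes of the pathway, 25 had a named probe set (34 probe sets), and 16 genes had at least 1 tested probe set (22 probe sets). By limma, 0 of these 22 had an adjusted p under 0.05. At an unadjusted p under 0.05 there were 1 higher and 2 lower of 22, against 3.1% and 3.52% over all probe sets. By the brightest probe set, 10 genes had a positive and 6 a negative sign, and the median was 0.035 on the log2 scale. The count of 3 was 1 without congenic replicate 3, the array with adrenal transcripts.

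Ptges3, the cytosolic prostaglandin E synthase that is also the Hsp90 co-chaperone p23, read 2914, 2914 and 3453 in congenic pools and 2819.7, 2433 and 2633 in S pools. Every congenic array lay above every S array. Congenic over S was 0.23 on the log2 scale (SE 0.077, limma adjusted p = 0.718). It was 0.15 without congenic replicate 3 and 0.18 without S replicate 2, where the unadjusted p was not under 0.05.

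Mgll, whose lipase frees arachidonate from a monoglyceride and also serves fat breakdown, read 939, 688 and 614 by probe set 1370831_at in congenic pools and 1332, 914 and 825 in S pools. The groups overlapped, and in both strains replicate 1 was highest. The log2 fold change was -0.44 (SE 0.18, limma adjusted p = 0.746). It was -0.24 without S replicate 1, -0.39 without congenic replicate 2 and -0.31 without congenic replicate 3, where the unadjusted p was not under 0.05. The other 2 tested Mgll probe sets gave -0.070 and -0.14 on the same scale.

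Ptgr3, a reductase that acts on oxidised prostaglandins, read 37.5, 45.5 and 49.7 by probe set 1385015_at in congenic pools and 61.2, 51.2 and 74.4 in S pools, without overlap. On the log2 scale it differed by -0.37 (SE 0.14, limma adjusted p = 0.737), whereas its brighter probe set was at -0.086. The unadjusted p was not under 0.05 without S replicate 3 (-0.26) or without congenic replicate 1 (-0.29). Cbr4, a carbonyl reductase, read 405, 451 and 438 in congenic pools and 467, 475 and 455 in S pools, or -0.11 on the log2 scale (SE 0.066, limma adjusted p = 0.789). Its groups did not overlap either, with congenic replicate 2 and S replicate 3 almost level, and the log2 value was -0.064 without congenic replicate 1. The phospholipase Pla2g4a, which supplies arachidonate to the cyclooxygenases, had a log2 fold change of -0.046.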

How the data were processed

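Processed kidney values of 3 congenic and 3 S pools were used. The deposited values are intensities on a linear scale (1 for each probe set), which the submitters' processing notes credit to MAS5. Its version and scaling target are not given in the sources used here, nor are detection calls. With the top and bottom 2% of probe sets left out, the mean signal was 150.05 on each array, so a shift common to most transcripts cannot be seen.

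Symbols came from the platform annotation and were updated through the gene ID to RefSeq GRCr8 (20758 of 20826 probe sets with 1 symbol matched). log2(signal + 16) was fitted with limma 3.58.1 in R 4.3.3 (eBayes with trend, 2-sided, Benjamini-Hochberg), without 57 controls and 12417 probe sets whose mean log2 value lay below the 40th percentile. The added 16 understates folds of dim probe sets. Means and SDs are of linear signal, whereas fitted folds are 2 to the power of the log2 fold change. An exact permutation of 3 and 3 arrays allows no p under 0.1 and was not used. The fit was tested on simulated data. The number of arrays limits the precision, with a median SE of 0.11 over all probe sets.

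The members, marker lists, pathway list and motifs were chosen with earlier results of these data known. The brightest probe set of each member gene and any with an unadjusted p under 0.05 or no overlap are given by array, and of the other pathway genes the 4 with the smallest p, plus Pla2g4a, which was chosen after its values were seen. Alternatives were pseudocounts 1 and 64, no filter, the 60th percentile, quantile normalization, median centring, eBayes without trend, the mean over a gene's probe sets, a replicate block, each array left out, and, added after the data were seen, congenic replicate 2 alone.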

Additional observations from a re-analysis of the deposited data

How the results depend on the processing

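No member passed an adjusted p of 0.05 under any alternative, where adjusted p ran from 0.495 to 0.998 over 177 values of the 12 member probe sets. Of those values 168 kept their sign. The exceptions were the brighter probe sets of Ptger3 (-0.041 to 0.060 with each array left out), Ptges (-0.25 to 0.018) and Ptges2 (-0.12 to 0.039) and the dimmer one of Slco2a1 (-0.19 to 0.0070), and, with congenic replicate 2 alone, Ptges at 0.20, Ptges2 at 0.11 and Slco2a1 (dimmer) at 0.011. The cause was not tested. With each array left out, 0 to 3 probe sets of the whole array were called, 1 to 2 members and 1 to 3 other pathway probe sets had an unadjusted p under 0.05, and the members' median log2 fold change ran from -0.19 to -0.11. With congenic replicate 2 alone that median was -0.075.

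With the replicate block, the members' median was -0.14, 0 probe sets were called, and 4 other pathway probe sets had an unadjusted p under 0.05, where Mgll (1370831_at) reached an adjusted p of 0.111. The labels state no pairing of same-numbered pools, so whether these held cage mates is unknown. Same-numbered arrays deviated from their group means with correlations of 0.017 to 0.043, and differently numbered arrays with -0.052 to 0.036. Not every array correlated best with its own number. Correlations this small do not decide whether the pools were paired. With 3 arrays a group, an interval such as that of Ptgds leaves folds of 0.651 to 1.09 within reach. Signals under the 40th percentile, as for Ptger1 and Ptger4, were not interpretable here.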

Other observations

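Of the other pathway genes, 9 had no probe set above the 40th percentile: Pla2g2a, Pla2g5, Hpgds, Ptgis, Ptger2, Ptgdr2, Ptgfr, Tbxa2r and Cyp4f4. Among them the thromboxane receptor gene Tbxa2r, chosen after its values were seen, read 4.90, 25.8 and 25.1 in congenic pools and 3.66, 3.60 and 9.66 in S pools, without a test. The groups overlapped, with congenic replicate 1 inside the S range. Whether these dim signals exceed the array's background is unknown, so no direction can be read.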
